A study of Mus musculus with 4 samples.

Results

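Havcr1 encodes kidney injury molecule 1 (KIM-1, also TIM-1), and its transcript was followed across 4 mouse kidney sections as 1 of the 32285 genes that the count tables list. The gene was taken by its symbol and has the identifier ENSMUSG00000040405. RefSeq places it on chromosome 11 of GRCm38.p6, from 46739822 to 46779578. The study recorded spatial gene expression with the Visium assay, in which barcoded spots on a slide capture the RNA of the tissue section lying on them. Kidneys came from male C57BL/6J mice. The 2 Uox_KO mice carried a commercial deletion of exons 2 to 4 of Uox, the gene of urate oxidase, which breaks uric acid down in rodents, and the 2 Control mice were wild type. The deletion is not restricted to a cell type by anything the labels say, no treatment is named, and the age of the mice is not given. Tissue was fresh frozen and cut at 10 µm, with 1 section per mouse by the titles, so the section is the replicate and n = 2 per group throughout. A spot usually covers several cells, so every share below is a share of spots and not of cells.

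KIM-1 is a type I membrane glycoprotein of the T cell immunoglobulin and mucin (TIM) family. Healthy kidney holds very little of it, while dedifferentiated proximal tubule cells make it after toxic, ischaemic or obstructive injury and display it on their luminal side. Its immunoglobulin domain binds phosphatidylserine, the lipid that dying cells expose, and with it an epithelial cell can take up apoptotic debris. Metalloproteinases cut off its ectodomain, and the shed part in urine is a widely used marker of tubular injury. STAT3, SOX9 and AP-1 are among the transcription factors linked to tubular injury programmes.

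The promoter of Havcr1 is shown because genes of those factors are among the ones that moved with it below. RefSeq's table lists 3 starts for Havcr1, and the 250 bases before the first of them, on the plus strand at chr11:46739973-46740222 of GRCm38.p6, read as follows, with the only match to a searched motif in capitals. The gene's listed span begins before this window, so the window lies within it, and that outer start is not among the 3.
Havcr1: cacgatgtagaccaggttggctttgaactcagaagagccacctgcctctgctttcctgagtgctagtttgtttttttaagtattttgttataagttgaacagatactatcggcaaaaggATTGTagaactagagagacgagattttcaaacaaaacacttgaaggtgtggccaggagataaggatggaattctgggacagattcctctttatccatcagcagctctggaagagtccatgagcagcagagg
On both strands of the 250 bases before each of 32851 starts in the table, the STAT core TTCNNNGAA matched in 7.02%, the SOX core ACAAT in 27.66% and the AP-1 motif TGANTCA in 6.749%. Of the 3 Havcr1 windows, 1 held the SOX core, on the minus strand with its first base 131 bases before the start. Neither the STAT nor the AP-1 letters occurred in the 3 windows, which says nothing about binding of those factors elsewhere.

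Molecules were counted by unique molecular identifiers (UMIs), of which Control totalled 93524222 and 107962997 over 2528 and 3362 spots. Uox_KO totalled 53897511 and 57230517 over 2650 and 2590 spots. Median depth per spot was 37386 and 32038.5 for Control but only 16674 and 19599.5 for Uox_KO. A given amount of Havcr1 was therefore harder to detect in a Uox_KO spot. Spot barcodes mark positions on the slide, and 1713 of 3936 were used in all 4 sections. Mitochondrial transcripts took 13% to 17.3% of the UMIs of a section. Uox itself had 0 UMIs in all 4 sections, so its transcript does not check the genotype labels here.

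Havcr1 was almost absent from Control kidney and abundant in Uox_KO kidney. The Control sections held 26 and 30 Havcr1 UMIs and the Uox_KO sections 4811 and 5718. In UPM, the UMIs of a gene per 1000000 UMIs counted in the same spots, this was 0.278 and 0.278 in Control and 89.3 and 99.9 in Uox_KO. Both Uox_KO sections stood far above both Control sections, and the sections of a genotype lay close together. Relative to all UMIs counted, the pooled sections differed 340.9-fold, with an exact 95% interval of 262.3 to 451.6 that covers counting error only. After TMM scaling, which corrects library sizes for composition and gives counts per 1000000 (CPM), the levels were 0.306 and 0.303 CPM in Control and 80.0 and 92.8 CPM in Uox_KO, with log2 difference 8.14, SE 0.13, adjusted p 4.41e-07, by the quasi-likelihood test of edgeR, adjusted over 16369 genes by the Benjamini-Hochberg method. In that test 34.6% of genes were called higher in Uox_KO and 32.5% lower, so a call by itself was common. Fewer cells that express Havcr1 and less Havcr1 RNA per cell cannot be told apart in such spots.

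**Figure D1:**
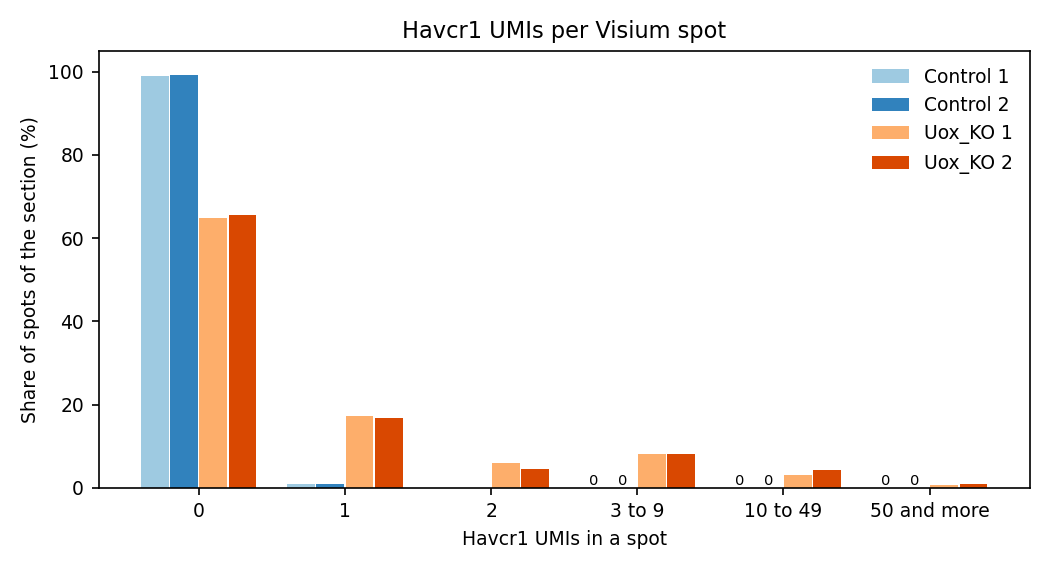
Share of the spots of each section in percent (vertical axis) by the number of Havcr1 UMIs in the spot (horizontal axis), with 1 bar per section. Control spots with 3 or more UMIs are 0 in both sections, while the Uox_KO bars run on to the spots with 50 and more UMIs, of which there are 18 and 21.

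Spots with at least 1 Havcr1 UMI were 25 of 2528 and 29 of 3362 in Control, that is 0.989% (exact Clopper-Pearson 95% interval 0.641 to 1.46) and 0.863% (0.578 to 1.24). In Uox_KO they were 934 of 2650 and 895 of 2590, or 35.2% (33.4 to 37.1) and 34.6% (32.7 to 36.4). The shares of the 2 genotypes did not overlap, although Uox_KO spots were the shallower ones. After thinning every spot to 5000 UMIs the expected shares were 0.137% and 0.125% in Control and 18.1% and 17.5% in Uox_KO, leaving out 6, 4, 293 and 152 shallower spots. The mean difference of 17.7 percentage points had an exact two-sided permutation p of 0.3333, which is the smallest that 2 against 2 sections allow.

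Control spots carried single molecules, while Uox_KO spots ranged widely. Of the Control spots with Havcr1, 24 of 25 and 28 of 29 had exactly 1 UMI, and none had more than 2. In Uox_KO, 459 and 434 spots had 1 UMI, 161 and 120 had 2, and 314 and 341 spots (11.8% and 13.2%) had 3 or more. At the upper end 99 and 130 spots had at least 10 UMIs and 18 and 21 had at least 50. The maximum was 114 UMIs in the first Uox_KO section and 262 in the second. Havcr1 was thus concentrated: the top 10% of spots held 80.7% and 83.6% of its UMIs, and the top 1%, which is 26 spots, held 34.6% and 35.4%. Lcn2, Vcam1 and Spp1 were spread more evenly. The top 10% of spots for Lcn2, which encodes the iron-siderophore binder lipocalin-2, held 65.2% and 66.0% of its UMIs. For the adhesion molecule gene Vcam1 the value was 54.9% and 54.2%, and for Spp1, which encodes osteopontin, it was 53.9% and 54.0%. Krt20 and Krt19, keratin genes, came close to Havcr1 with 84.2% and 88.2% and with 78.9% and 80.1%. Such shares also depend on how many UMIs a gene has, which was 690 and 668 for Krt20 and 1850 and 1581 for Krt19. These companion genes were picked from the list of injury genes after their values were seen, and the differences between genes were not tested.

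Of the other 3 TIM family genes, Timd2 and Havcr2 had enough UMIs for the test between whole sections. Timd2, which encodes TIM-2, a ferritin-binding receptor, was 92.5 and 89.6 CPM in Control and 60.7 and 59.8 CPM in Uox_KO (log2 difference -0.60, SE 0.056, adjusted p 0.000122). It fell in both Uox_KO sections, and the genotypes did not overlap. Havcr2, which encodes the T cell and macrophage checkpoint TIM-3, was 0.306 and 0.202 CPM in Control and 1.81 and 1.51 CPM in Uox_KO (log2 difference 2.72, SE 0.26, adjusted p 0.000141). Timd4, a phosphatidylserine receptor of resident macrophages, had 11 and 5 UMIs in the Uox_KO sections, too few for the test.

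Other receptors for phosphatidylserine were mostly higher in Uox_KO sections, though far less so than Havcr1. Of 15 tested, 11 were called higher and 4 lower, with a median log2 difference of 1.26 against 0.0025 over all genes tested. Of all those genes 34.6% were called higher and 32.5% lower. Axl, a TAM family receptor tyrosine kinase, was 15.4 and 14.5 CPM in Control and 74.5 and 68.8 CPM in Uox_KO (log2 difference 2.26, SE 0.068, adjusted p 1.85e-06). Stab1, a scavenger receptor of macrophages and endothelium, was 10.1 and 11.2 CPM in Control and 61.8 and 49.5 CPM in Uox_KO (log2 difference 2.39). The integrin subunit gene Itgav went from a mean of 119 to 261 CPM, and Cd300a, an inhibitory receptor of myeloid cells, from 0.684 to 3.55 CPM, both called higher. The 4 lower were Timd2, Stab2 (-1.44), Cd36 (-0.60) and Mertk (-0.54), the last 3 named after their values were seen. Timd2 stands in this list although its product is named above as a ferritin-binding receptor. Molecules that bridge dying cells to receptors were mostly higher as well, where 6 of 8 were called higher and 1 lower (median 1.72). C1qb, a chain of complement C1q, was 19.2 and 17.7 CPM in Control and 272 and 238 CPM in Uox_KO, and C1qa, Anxa1 and Thbs1 rose by 3.39, 2.28 and 2.09 on the log2 scale. Edil3, named after its value was seen, was the 1 lower (-0.76) and did not pass by DESeq2 or without either Control section.

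The next counts stand against 34.6% of all genes called higher and 32.5% called lower between whole sections. The machinery that engulfs and digests cargo was mixed and near those shares, with 5 of 18 genes called higher, 8 lower and a median of -0.15. That median is within the shift of 0.264 that scaling by total UMIs in place of TMM adds to every gene, so its sign depends on the scaling. Abca1, a lipid exporter, Lrp1, an endocytic receptor, and Elmo1, a Rac activator in phagocytosis, rose by 1.23, 1.41 and 1.78, and Ctsd and Gulp1, named after their values were seen, by 0.51 and 0.78. Sqstm1, an autophagy receptor, fell from 469 and 446 to 309 and 310.1 CPM (log2 difference -0.56, SE 0.067, adjusted p 0.000365). Of 8 tested genes listed for the shedding of KIM-1 and for its partners, 6 were called higher and 2 lower (median 1.14). Mmp3, a matrix metalloproteinase, had 2 and 3 UMIs in Control and 301 and 329 in Uox_KO. Nr4a1, an orphan nuclear receptor, was 2.00 and 2.35 CPM in Control and 6.16 and 8.91 CPM in Uox_KO. Selp, the P-selectin gene, and Cd300lb, a myeloid receptor, were also called higher, at under 2 CPM in every section. Gna12 (-0.47) and Timp3 (-0.78), the latter a metalloproteinase inhibitor gene and not a sheddase gene, were the 2 lower, named after their values were seen. Of 13 genes listed as candidate regulators of Havcr1, 10 were called higher and 2 lower (median 1.03). The progenitor transcription factor gene Sox9 was 0.965 and 0.738 CPM in Control and 20.7 and 23.2 CPM in Uox_KO (log2 difference 4.70, SE 0.13, adjusted p 1.51e-06). Socs3, a feedback inhibitor and target of STAT3, was 1.0 and 0.799 CPM in Control and 11.8 and 11.6 CPM in Uox_KO. Osmr, the oncostatin M receptor gene, and Lif, a cytokine gene that signals through STAT3, rose by 2.51 and 4.98. Hnf4a, a transcription factor gene of the differentiated proximal tubule, was among the lower (-0.91), also named after its values were seen.

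To ask where Havcr1 lay in the tissue, each spot was put into 1 of 19 classes. A class is the cell type whose marker list stood highest in the spot, at 1 SD or more above the mean of its section, and a spot with no such list was called mixed. In the Uox_KO sections Havcr1 was present in every class, at very different levels. The mixed spots held 236 and 226 UPM in the first and second section, the fibroblast class 179 and 422 and the macrophage and myeloid class 198 and 177. The mixed spots, 13.6% and 13% of the section, carried 50.8% and 37.8% of all Havcr1 UMIs and were deep, with a median of 28474.5 and 27677.5 UMIs. The classes with the strongest proximal tubule markers were low, at 14.7 and 19.2 UPM for the S1 class, the first segment, and 27.1 and 19.1 for the S3 class, the last. A proximal class is defined by markers of mature proximal cells, so spots that have lost these markers fall outside it.

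Between these ends lay the thin limb and inner medulla class with 132 and 141 UPM, the neutrophil class with 73.9 and 189, the thick ascending limb class with 69.8 and 95 and the T and NK cell class with 83.7 and 70.0. In the first section 1 spot of 89 UMIs held 37.9% of the thin limb class's Havcr1, and that class had 84.0 UPM without it. The thin limb class leaned on 1 gene. Aqp1 made up 67.5% and 46.3% of its list's UMIs in class spots with at least 3 Havcr1 UMIs. In the other spots of the class Aqp1 made up 66.1% and 65.1%. The class was not formed again without Aqp1, so its name is uncertain. In the second section 1 spot of 99 UMIs held 31.3% of the neutrophil class's Havcr1, and that class had 132 without it. The endothelium class had 71.2 and 223, but 1 spot of 79 UMIs held 75.2% of its Havcr1 in the second section, which had 59.7 without it. The red blood cell class had 51.2 and 83.5, the collecting duct principal class 65.8 and 31.1 and the smooth muscle and pericyte class 44.4 and 35.1. Podocyte, B and plasma cell, intercalated and distal convoluted tubule classes lay between 15.5 and 50.2 UPM. The fat class was lowest at 13.6 and 4.99. In this order every class overlapped its neighbour between sections, apart from the S1 class and the fat class below it. Some lists rest on few UMIs per spot, so their classes are uncertain. In the Uox_KO sections the median spot of the neutrophil class had 1 and 1 UMIs of its list. The T and NK cell class had 3 and 3, the B and plasma cell class 10 and 2 and the urothelium class 22 and 7. Macrophage and fibroblast class spots had 124 and 125 and 82 and 65, but only 10 and 9 and 10 and 8 in Control.

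**Figure D2:**
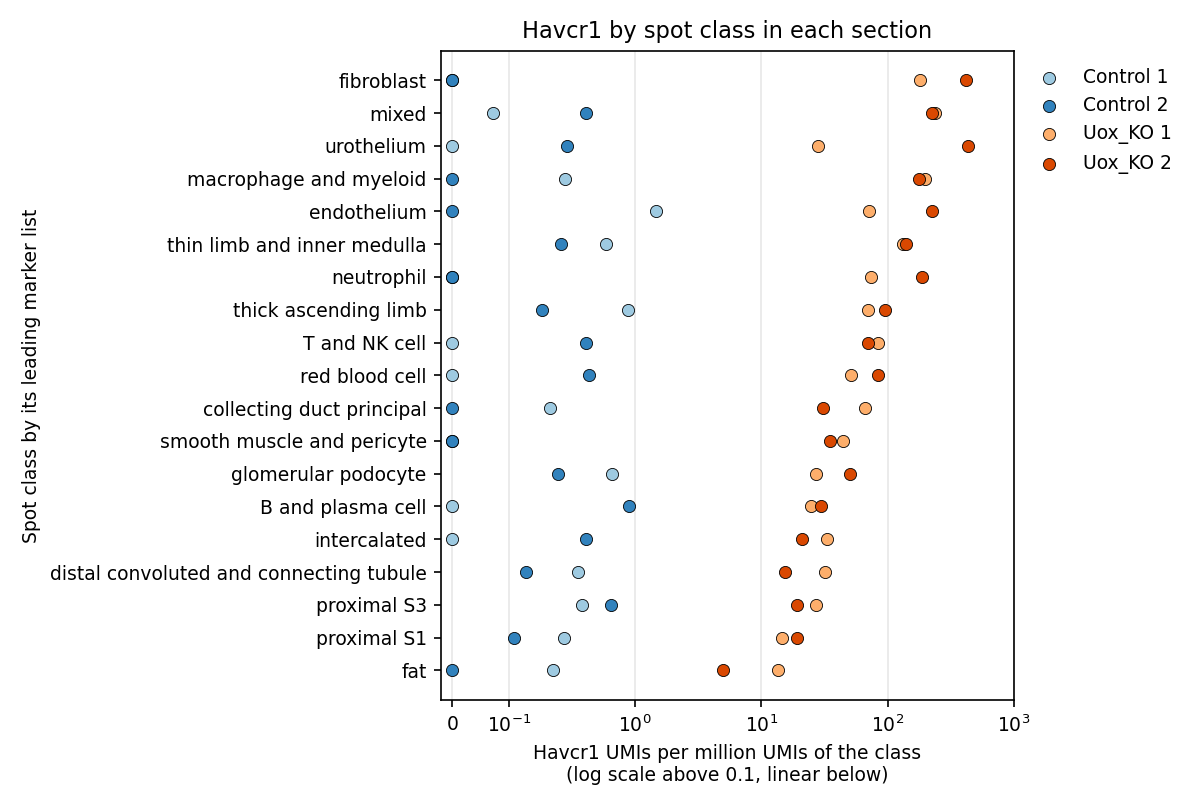
Havcr1 UPM of each spot class, the UMIs per 1000000 UMIs of the class (horizontal axis, log scale above 0.1 and linear below), with 1 point per section. Uox_KO points lie above the Control points in every class, and within Uox_KO the proximal S1, proximal S3 and fat classes lie below the mixed, fibroblast and macrophage classes.

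Each class was tested against the mean of the others within the Uox_KO sections by edgeR, over 13005 genes and with the section in the model. Havcr1 passed in 7 of 19 classes. It was higher in mixed spots by 2.11 (SE 0.26, adjusted p 1.85e-07), where 18.4% of genes were called higher, and in the fibroblast class by 2.11 (SE 0.36, adjusted p 9.33e-05), where 9.15% were. In the macrophage and myeloid class it was higher by 1.38 (SE 0.33, adjusted p 0.0013), where 19% of genes were called higher. It was lower in the S1 class at -1.58 (SE 0.48, adjusted p 0.00636), in the S3 class at -1.04 (SE 0.38, adjusted p 0.0189) and in the fat class at -2.47 (SE 0.67, adjusted p 0.00208). In those classes 27.9%, 33.2% and 26.3% of genes were called lower. The S3 difference was -1.85 without the first Uox_KO section and did not pass when a class needed 1.5 SD (adjusted p 0.419), and the fat difference was -3.87 without that section. The thin limb class did not pass, at 1.03 (SE 0.38, adjusted p 0.071) where 7.41% of genes were called higher, but passed at 1.43 (adjusted p 0.0417 by edgeR) when a class needed 1.5 SD and at 1.18 (0.00276) with Sprr1a left out of the urothelium list. The remaining 11 classes did not pass either, with differences from -1.34 in the B and plasma cell class to 1.08 in the endothelium class, and 0.0846% to 12.4% of genes called in the direction of Havcr1. Of these, the distal convoluted class (-1.32) passed at -1.66 (adjusted p 0.0049 by edgeR) when a class needed 0.5 SD and at -1.20 (0.0191) without Sprr1a, and the neutrophil class (0.98) passed at 1.14 (0.0452) and 1.32 (0.00459) in the same settings. The count of classes that passed was then 9 in both, and 6 at 1.5 SD. Further examples were the collecting duct principal class at -0.43 (SE 0.45, adjusted p 0.623) with 4.86% of genes called lower (0.33 without the second Uox_KO section and -1.11 without the first), the intercalated class at -1.32 (SE 0.64, adjusted p 0.2) with 4.44% and the podocyte class at -0.96 (SE 0.61, adjusted p 0.323) with 5.31%. The smooth muscle class stood at -0.99 (SE 0.77, adjusted p 0.415) with 8.07% called lower, and the endothelium class at 1.08 (SE 0.57, adjusted p 0.372) with 2.21% called higher, which turned to -0.22 when a class needed 1.5 SD.

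The urothelium class passed as well, at 1.87 (SE 0.35, adjusted p 0.000106) with 12.5% of genes called higher, but this rested on 1 section and 1 marker. Its level was 28.4 and 430.5 UPM, high only in the second section. There the 17 class spots with at least 3 Havcr1 UMIs held 134 UMIs of the urothelium list, of which 129 (96.3%) were Sprr1a, a cornified envelope gene. With Sprr1a removed from the list, a step chosen after seeing the data, the class held 11.3 and 56.4 Havcr1 UPM and its difference was -0.98 (adjusted p 0.113 by edgeR). Without the second Uox_KO section the difference was -0.94.

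Free RNA in the tissue can put single UMIs into spots whose cells do not express a gene. As a reference, 18.3% and 11.5% of fat class spots had at least 1 Havcr1 UMI, at a median depth of 14968 and 22642 UMIs. S1 class spots had 23.7% and 27.4%, at 18256 and 23248. Macrophage class spots had 60.6% and 62.9%, at 18444 and 21001. Thinned to 5000 UMIs, the shares were 9.10% and 4.00% for fat, 7.70% and 8.90% for S1 and 35.3% and 36.8% for macrophage spots. Thinned, S1 spots lay below the fat reference in the first section and above it in the second, while macrophage spots lay above it in both.

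Havcr1 was higher in Uox_KO than in Control in each of the 19 classes when each was tested alone by edgeR, with log2 differences from 5.23 in the B and plasma cell class to 9.85 in the urothelium class among those with at least 1 Control UMI. In those tests 13.6% (endothelium) to 30.1% (T and NK cell) of genes were called higher, with 22.2% in S1, 19.9% in S3, 22.9% in thick ascending limb, 19.8% in smooth muscle, 22.1% in fibroblast, 26.1% in neutrophil and 29.8% in both macrophage and mixed spots. S1 spots had 3 Havcr1 UMIs in Control and 168 in Uox_KO, a 92.4-fold difference in UPM (exact 95% interval 31.1 to 452.6, counting error only). S3 spots had 9 and 486, a 43.7-fold difference (22.8 to 96.1). Control had 0 UMIs in the smooth muscle, fibroblast and neutrophil classes. With 3 UMIs over the Control group as a floor, Havcr1 was at least 74.5-fold, 343.6-fold and 473.8-fold higher there in Uox_KO. The few positive Control spots were scattered, with 7 and 2 in the thick ascending limb class, 3 and 5 in S3, 4 and 2 in the thin limb class and 1 and 6 in mixed spots.

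To find which genes shared spots with Havcr1, spots of the Uox_KO sections with at least 5000 UMIs were divided by Havcr1. High spots had at least 3 Havcr1 UMIs and were among the top 10% by Havcr1 UPM. They numbered 192 and 214 (8.15% and 8.78%), lay above 167.0 and 179.8 UPM, and held 74.1% and 79.6% of the Havcr1 UMIs. Free spots had 0 Havcr1 UMIs and numbered 1457 and 1564. The high spot nearest to the threshold had 168.7 and 180.2 UPM, and the 708 and 660 intermediate spots had at least 1 UMI, with up to 390.4 and 374.0 UPM where they had fewer than 3 UMIs. High spots were deeper, with a median of 29078.5 and 31025 UMIs against 15797 and 17317, and had less mitochondrial RNA, 9.61% and 12.8% against 15.6% and 18.8%. Mixed spots made up 40.6% and 36.9% of high but 8.37% and 8.44% of free spots. Macrophage class spots made up 12.5% and 10.3% against 2.75% and 2.11%, and S1 spots 0% and 1.87% against 12.4% and 9.40%.

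With Havcr1 left out, counts summed per section and Havcr1 class were tested for 14668 genes by edgeR with the section in the model. In high against free spots 19.6% of genes were called higher and 22.5% lower, and the median over all genes was -0.01. Neighbouring spots and cell types shared between classes are not independent samples, so each difference rests on 2 sections. Values below are CPM for the first and second section, and differences are on the log2 scale. Where only spots above their section's median of proximal markers were used, with high and free redefined inside them, 7.62% and 8.8% were called. With only spots of matched depth, an alternative added after seeing the data, 17.2% and 19.1% were.

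The 10 largest rises included all 3 fibrinogen chain genes. Fgb, the fibrinogen beta chain gene, was 1.24 and 1.91 CPM in the free spots and 29.2 and 41.6 CPM in the high spots (log2 difference 4.48, SE 0.14, adjusted p 3.9e-12). Fgg, the gamma chain gene, was 34.3 and 38.5 CPM in the free spots and 292 and 408 CPM in the high spots (log2 difference 3.26, SE 0.073, adjusted p 1.58e-13), and Fga, the alpha chain gene, rose by 2.83. In both sections each chain was higher in the high spots. Saa1, an acute-phase apolipoprotein gene, was 1.14 and 0.230 CPM in the free spots and 20.1 and 5.69 CPM in the high spots (4.22), with the sections apart in level but not in direction. The neutrophil chemokine genes Cxcl1 and Cxcl5 rose by 2.75 and 2.60. Aoc1, a diamine oxidase gene, and Serpina10, a serpin that inhibits coagulation factors, rose by 2.73 and 2.64. Spp1 was 4318 and 3834 CPM in the free spots and 24783 and 22906 CPM in the high spots (log2 difference 2.55, SE 0.052, adjusted p 7.78e-14). Spaca7 rose by 2.54. The 10 largest falls were genes far lower in high than in free spots. Among them, Ucp1, the uncoupling protein of brown fat, was 309 and 423 CPM in the free spots and 13.3 and 9.54 CPM in the high spots, and Cox8b, a muscle and brown fat cytochrome oxidase subunit, fell with it (-5.25). The other 8 were Aldh3a1, Ankef1, Myl1, Orm3, Sprr2a3, Serpina3c, Poln and Ivl. Fat class spots made up 6.25% and 8.63% of free but 0.521% and 0% of high spots. Urothelium class spots made up 5.22% and 3.77% of free and 0.521% and 7.94% of high spots. The part of this makeup in the falls was not tested.

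**Figure D3:**
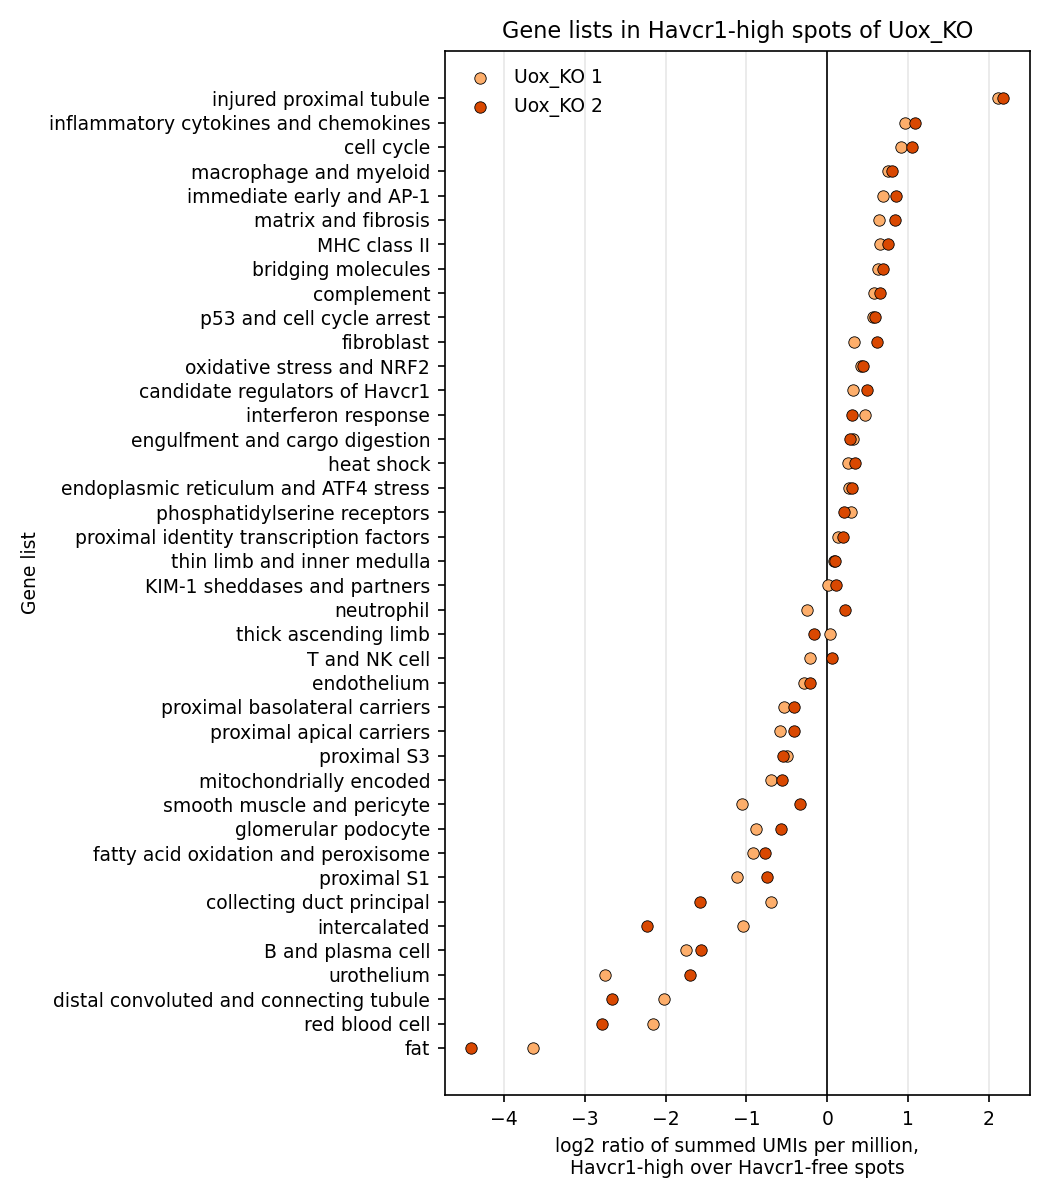
Log2 ratio of the summed UPM of each gene list (vertical axis) in Havcr1-high over Havcr1-free spots (horizontal axis), with 1 point per Uox_KO section. The injured proximal tubule list lies farthest right at 2.12 and 2.18, and the fat list lies farthest left at -3.64 and -4.41. Spp1 made up 84.0% and 83.1% of the injured list's sum in high spots, and without it that list stood at 0.70 and 0.78.

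Of the injured proximal tubule genes 25 of 30 were higher and 3 lower (median log2 difference 1.34), the list having been chosen with knowledge of these data. In the proximal spots the counts were 22 higher and 2 lower of 30. Lcn2 was 95.5 and 58.8 CPM in the free spots and 221 and 191 CPM in the high spots (1.44). Vcam1 rose by 1.46 and Krt20 by 2.02, while 3 other keratin genes fell, namely Krt7 (-1.68), Krt18 (-0.82) and Krt19 (-2.09). These members were named after their values were seen. Sox9 was 16.6 and 17 CPM in the free spots and 41.5 and 59.5 CPM in the high spots (1.59). Among cell cycle genes 14 of 15 were higher and 0 lower (median log2 difference 1.25). Cdk1, the mitotic kinase gene, was 4.87 and 4.97 CPM in the free spots and 13.9 and 19.1 CPM in the high spots (log2 difference 1.75, SE 0.15, adjusted p 1.99e-07), and Birc5, Rrm2 and Stmn1 rose by 1.36, 1.42 and 1.17. In the proximal spots cell cycle genes stood at 10 higher and 0 lower of 15.

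Mature proximal tubule genes were lower in high spots. Among S1 markers 1 of 10 were higher and 7 lower (median log2 difference -1.05), and among S3 markers 0 of 12 were higher and 9 lower (median log2 difference -0.63). Slc34a1, the sodium phosphate cotransporter gene, was 3155 and 3569 CPM in the free spots and 1254 and 1798 CPM in the high spots (log2 difference -1.16, SE 0.07, adjusted p 3.69e-09). Slc22a8, an organic anion transporter gene, and Slc7a13, an S3 amino acid transporter gene, fell by 1.71 and 1.57. Slc7a7, a basolateral amino acid transporter gene named after its value was seen, was the S1 marker that rose (0.55). Apical carriers were mixed, where 2 of 16 were higher and 10 lower (median log2 difference -0.53). Slc13a1, the apical sulfate cotransporter gene, went against its neighbours at 256 and 262 CPM in the free spots and 651 and 691 CPM in the high spots (log2 difference 1.37, SE 0.053, adjusted p 2.5e-11). Slc7a9, the other carrier called higher, rose by 0.26 (-0.019 with matched depth) and was also chosen after its values were seen. Slc13a3, a dicarboxylate carrier gene, and Slc22a6, an organic anion exchanger gene, fell by 1.11 and 1.08. Of the basolateral carriers 0 of 12 were higher and 7 lower (median log2 difference -0.44), among them Slc2a9, a urate transporter gene named after its value was seen (-0.87). Of the identity transcription factors 2 of 11 were higher and 3 lower (median log2 difference -0.19), near the 19.6% and 22.5% of all genes. Pax8, at 18.7 and 15.8 CPM in the free spots and 40.0 and 40.4 CPM in the high spots (1.23), was among those that rose. Emx1, Maf and Nr1h4 were the 3 that fell.

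Genes of energy metabolism fell together. Of the fatty acid oxidation and peroxisome genes 0 of 20 were higher and 19 lower (median log2 difference -0.97), and Acaa2, a mitochondrial thiolase gene, was 343 and 422 CPM in the free spots and 104 and 134 CPM in the high spots (log2 difference -1.69, SE 0.058, adjusted p 8.23e-12). Acaa1b, Cyp4a10 and Ehhadh fell by 1.47, 1.06 and 1.07. Ppara, which encodes the receptor that drives this programme, was the member not called. Of the transcripts encoded in mitochondria 0 of 13 were higher and 12 lower (median log2 difference -0.79), and mt-Nd6 was the one not called. In the proximal spots the counts were 0 higher and 12 lower of 20 and 0 higher and 12 lower of 13.

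Markers of the distal convoluted tubule, collecting duct and thick ascending limb were mostly lower in high spots, while those of the thin limb went both ways. In the distal convoluted tubule list 0 of 9 were higher and 9 lower (median log2 difference -2.25), in the collecting duct list 0 of 9 were higher and 7 lower (median log2 difference -1.54) and in the intercalated list 0 of 9 were higher and 9 lower (median log2 difference -1.88). Calb1, a calcium buffer gene, fell by 2.90, Aqp3, a basolateral water channel gene, by 2.17 and Rhcg, an ammonia channel gene, by 2.15. Among thick ascending limb markers 0 of 10 were higher and 9 lower (median log2 difference -0.78), yet the summed list was close to level (log2 ratio of high to free 0.04 and -0.16). That sum is mostly 1 gene. In thick ascending limb class spots with at least 3 Havcr1 UMIs, Umod made up 87.0% and 85.1% of the list's UMIs. In the other spots of the class Umod made up 76.0% and 70.1%. Egf was 134 and 152 CPM in the free spots and 25.4 and 32.2 CPM in the high spots (-2.31) and Slc12a1, the main salt carrier gene of this limb, fell by 0.98. The thin limb list was split, where 5 of 11 were higher and 5 lower (median log2 difference 0.32), and its sum stood at 0.08 and 0.10. Thin limb class spots made up 4.17% and 5.61% of high against 2.06% and 2.24% of free spots. Slc4a11, a membrane transporter gene, was 6.57 and 3.12 CPM in the free spots and 31.1 and 17.4 CPM in the high spots (2.33), and Bst1 rose by 1.52 and S100a4 and Cldn4 by 0.32 each. Among the lower were Sptssb (-4.54), Slc14a2 (-1.90), Akr1b3 (-0.68) and Aqp1 (-0.43). Sptssb had no UMI in either Control section, so it did not mark the thin limb there. Cldn4 turned to -0.0097 in the proximal spots, and Akr1b3 to 0.14 without spots of the fat and urothelium classes. Podocyte, smooth muscle and endothelium lists had no member called higher and 8, 8 and 10 called lower. Fat, red blood cell and urothelium markers were lower in every tested member, 7 of 7, 5 of 5 and 8 of 8.

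Matrix and fibroblast genes did not move as 1 block. Of the matrix and fibrosis list 25 of 30 were higher and 3 lower (median log2 difference 0.63), and in the proximal spots 11 higher and 3 lower of 30. Timp1, a metalloproteinase inhibitor gene, was 79.7 and 69.6 CPM in the free spots and 214 and 265 CPM in the high spots (log2 difference 1.69, SE 0.089, adjusted p 8.45e-10). Ccn1, a matricellular gene, was 68.9 and 67.5 CPM in the free spots and 191 and 204 CPM in the high spots (1.53), and Ltbp2 rose by 1.0. Col6a1, Postn and Lum were the 3 lower, at -0.29, -1.04 and -1.64, of which Col6a1 turned to 0.15 with matched depth. The fibroblast markers gave 3 higher and 6 lower of 10 with a median of -0.50, while their summed UMIs were higher in high spots (log2 ratio 0.33 and 0.61). Col1a1, Col1a2 and Col3a1 rose by 0.59, 0.45 and 0.69 and Dcn, Lum and Dpt fell by 1.05, 1.64 and 1.57, as did Mfap5, Pdgfra and Postn, of which Mfap5 and Pdgfra were named after their values were seen. With matched depth Mfap5 turned to 0.42 and the fibroblast counts were 5 higher and 3 lower of 10.

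Macrophage genes and inflammatory mediators were higher in high spots. Among macrophage markers 12 of 12 were higher and 0 lower (median log2 difference 0.70), and their summed UMIs rose in both sections (log2 ratio 0.76 and 0.80). Cd14, a lipopolysaccharide co-receptor gene, was 21.5 and 18.8 CPM in the free spots and 71.3 and 80.4 CPM in the high spots (log2 difference 1.92, SE 0.087, adjusted p 1.65e-10), and Tyrobp, C1qc and Fcer1g rose by 0.99, 0.77 and 0.74. Among cytokines and chemokines 20 of 27 were higher and 0 lower (median log2 difference 0.86), with Csf1, Il34 and Ccl2, which recruit or sustain macrophages, at 1.62, 1.46 and 1.70. MHC class II genes stood at 7 higher and 0 lower of 7, with Cd74 at 0.65. The macrophage share of high spots moved with these genes, and its part in the result was not tested. In the complement list 6 of 12 were higher and 5 lower (median log2 difference 0.28), with Cfi and C3 at 1.87 and 1.35. Among the lower were C1ra, C1s1, Serping1 and Cd55, from -0.48 to -0.25, named after their values were seen, and C1ra, C1s1 and Serping1 turned positive with matched depth. Of interferon genes 12 of 21 were higher and 2 lower (median log2 difference 0.21), with Gbp2 at 1.16, and Ifi27 among the lower at -0.92. Ifi27 turned to 0.23 (adjusted p 0.0078 by edgeR) without spots of the fat and urothelium classes.

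Lymphocyte and granulocyte markers had no member called higher over all spots by edgeR. Among T and NK cell markers 0 of 11 were higher and 1 lower (median log2 difference -0.38), the 1 call being Cd3e (log2 difference -0.69, SE 0.22, adjusted p 0.0201). With matched depth the same list gave 3 higher and 0 lower of 10 (Cd3d, Cd8a and Trac) and Cd3e turned to 0.41. B and plasma cell markers stood at 0 higher and 3 lower of 6, with Igkc, an immunoglobulin light chain gene, at -3.09, and Igha and Jchain, named after their values were seen, at -3.83 and -3.82. Of 4 neutrophil markers 0 were called by edgeR, 0 had an unadjusted p under 0.05 and 0 were called by DESeq2.

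Immediate early and p53 genes were mostly higher in high spots, while NRF2 genes were split. The counts stand against 19.6% of all genes called higher and 22.5% called lower. Of immediate early and AP-1 genes 12 of 15 were higher and 1 lower (median log2 difference 0.81), with Junb, Klf6 and Jun at 1.18, 1.27 and 0.81 and Ier3, named after its value was seen, at -0.21 (0.064 in the proximal spots). Of the p53 list 10 of 12 were higher and 1 lower (median log2 difference 0.44), and Gdf15, a stress cytokine gene, was 35.5 and 32.7 CPM in the free spots and 99.7 and 118 CPM in the high spots (log2 difference 1.68, SE 0.093, adjusted p 1.51e-09), while Cdkn1a rose by 0.48 and Phlda3, named after its value was seen, was at -0.56 but at 0.39 without spots of the fat and urothelium classes. Endoplasmic reticulum stress genes gave 7 higher and 1 lower of 13 with Ddit4 at 0.79 and Herpud1 at -0.51. NRF2 genes split, at 6 higher and 7 lower of 17, with Akr1b8 at 1.29 and Gsta4 at -1.71. Heat shock genes, at 3 higher and 4 lower of 12, were not far from the shares over all genes. Hspb1, a small heat shock protein gene, was 84.9 and 77.2 CPM in the free spots and 319 and 294 CPM in the high spots (log2 difference 1.92, SE 0.057, adjusted p 1.99e-12), whereas Hspd1, the mitochondrial chaperonin gene, fell by 0.42. Hsp90aa1 and Hspa1b were the other 2 higher (0.47 and 0.31), with Hspa1b at -0.025 in the proximal spots. Hspe1, Hsph1 and Dnaja1 were the other 3 lower (-0.19, -0.17 and -0.15), about the size of the shift of 0.165 that scaling by total UMIs adds.

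The genes tied to the function of KIM-1 itself moved modestly. Their counts stand against 19.6% of all genes called higher and 22.5% called lower, and those of the engulfment and shedding lists were not far from these shares. Timd2, which fell in whole sections, was 54.1 and 51.9 CPM in the free spots and 121 and 129 CPM in the high spots (log2 difference 1.24, SE 0.064, adjusted p 7.09e-10), so within Uox_KO tissue it was higher where Havcr1 was. Havcr2 rose by 1.05 (adjusted p 0.0133 by edgeR). The phosphatidylserine receptor list, in which Timd2 is again counted, gave 5 higher and 2 lower of 14 and a median of 0.15. Higher were Timd2, Itgb3, Itgav, Stab1 and Itgb5, with Itgb3 and Itgav at 0.91 and 0.31. In the proximal spots Itgav, Stab1 and Itgb5 turned to -0.070, -0.014 and -0.0022. Lower were Cd36, a scavenger receptor gene, and Mertk, a TAM receptor gene named after its value was seen, at -0.57 and -0.72. Bridging molecules gave 5 higher and 0 lower of 8, with Thbs1 and C1qa at 0.73 and 0.67 and C1qb, Gas6 and Mfge8 the others. Of the engulfment genes 5 of 18 were higher and 2 lower (median log2 difference 0.09), and Ctsl, a lysosomal protease gene, was 599 and 566 CPM in the free spots and 944 and 941 CPM in the high spots (log2 difference 0.69, SE 0.052, adjusted p 3.64e-08). Sqstm1, lower in whole Uox_KO sections, was higher in high spots (0.40), as were Abca1, Map1lc3b and Rac1, and Gulp1 and Atg5 were lower. Of the shedding list 1 of 8 were higher and 2 lower (median log2 difference -0.09). Adam10, a sheddase gene, was 64.2 and 59.0 CPM in the free spots and 83.8 and 87.4 CPM in the high spots (0.48), Adam17 did not pass (0.15, adjusted p 0.217 by edgeR), and Nr4a1 and Timp3 were lower (-1.64 and -0.17). The Timp3 difference is about as large as the shift of 0.165 that scaling by total UMIs adds as well. Of the candidate regulators 8 of 13 were higher and 1 lower (median log2 difference 0.44), with Lif at 1.46, Stat3 at 0.45, Socs3 at 0.59 and Il6ra at -0.58, the last 2 named after their values were seen, and Il6ra at 0.33 with matched depth.

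Along rising Havcr1, several genes changed, though not all of them step by step. Spots were binned at 0, up to 50, 50 to 100, 100 to 200, 200 to 500 and 500 or more Havcr1 UPM, which gave 71 and 81 spots in the last bin. In UPM, Spp1 rose through 4227, 6785, 10083, 15740.3, 22969 and 32929.7 in the first section and through 3573, 5476, 9838, 15733, 22397 and 27356 in the second. It was higher in each bin than in the one before, in both sections. Fgg rose from 33.5 to 345 in the first and from 35.9 to 587 in the second section, Fgb from 1.22 to 46.7 in the first and from 1.78 to 78.6 in the second section and Timd2 from 52.9 to 162 in the first and from 48.4 to 169 in the second section. Slc34a1 went from 3088 to 1036 in the first and from 3326 to 1549 in the second section and Acaa2 from 335 to 104 in the first and from 393 to 126 in the second section. In the first section Slc34a1 was 3135 in the bin up to 50, slightly above its start. The summed S3 list was higher in intermediate than in free spots, at 4504 against 4174 and 4218 against 3881 UPM. In high spots that list was lowest, at 2957 and 2656. Over the last 3 bins the summed macrophage markers stood at 2223, 2168 and 2298 UPM in the first section and fell through 1993, 1889 and 1521 in the second. Lcn2 was highest in the 200 to 500 bin, at 278 and 227. The bin above 0 and up to 50 holds deep spots, with a median of 32997 and 34356 UMIs, since only there can 1 UMI be so low a level.

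**Figure D4:**
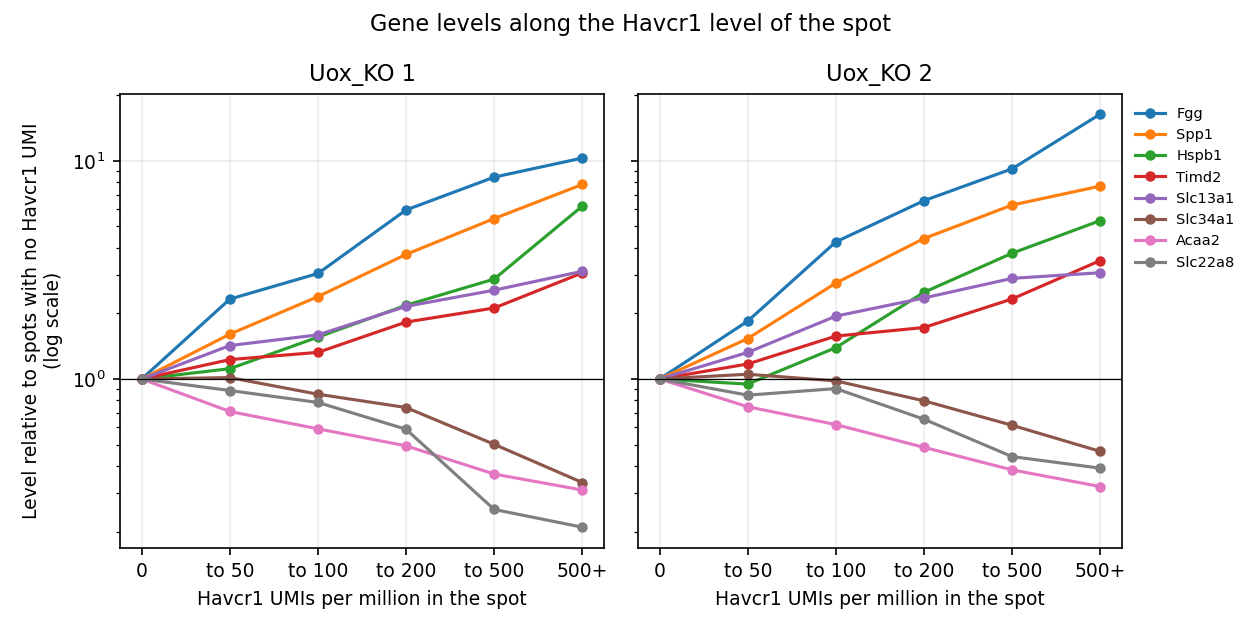
Level of 8 genes relative to their level in spots with no Havcr1 UMI (vertical axis, log scale) across bins of Havcr1 UPM in the spot (horizontal axis), with 1 panel per Uox_KO section. Fgg and Spp1 climb most, Hspb1, Timd2 and Slc13a1 less, and Slc34a1, Slc22a8 and Acaa2 end below their starting level in both sections.

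The genes most like Havcr1 were ranked by Pearson's r of log levels across spots within each Uox_KO section, by the r nearer to 0 of the 2 sections. The 2357 and 2438 spots share a library and differ in depth, with which Havcr1 had r of 0.144 and 0.152, and the median over 10508 genes was 0.024 and 0.030. Spp1 came first with r of 0.523 and 0.557, followed by Fgg (0.443 and 0.520), Serpina10 (0.407 and 0.432), Fga (0.393 and 0.464) and Aoc1 (0.438 and 0.393). Cstb, Tmem176b, Hspb1, Anxa3, Slc13a1, Gc and Tnfrsf12a completed the first 12, down to 0.333 and 0.429. In all, 19 genes exceeded 0.3 in both sections. At the other end were Ces1d, a carboxylesterase gene (-0.266 and -0.259), Pck1, the gluconeogenic enzyme gene (-0.243 and -0.242), Acaa2 (-0.207 and -0.239), Nat8f1, Cxcl12 and Atp5a1. These are descriptions across spots of 2 sections. With Spearman's rho 9 of the first 12 were the same genes, and with spots of at least 10000 UMIs 10 were.

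**Figure D5:**
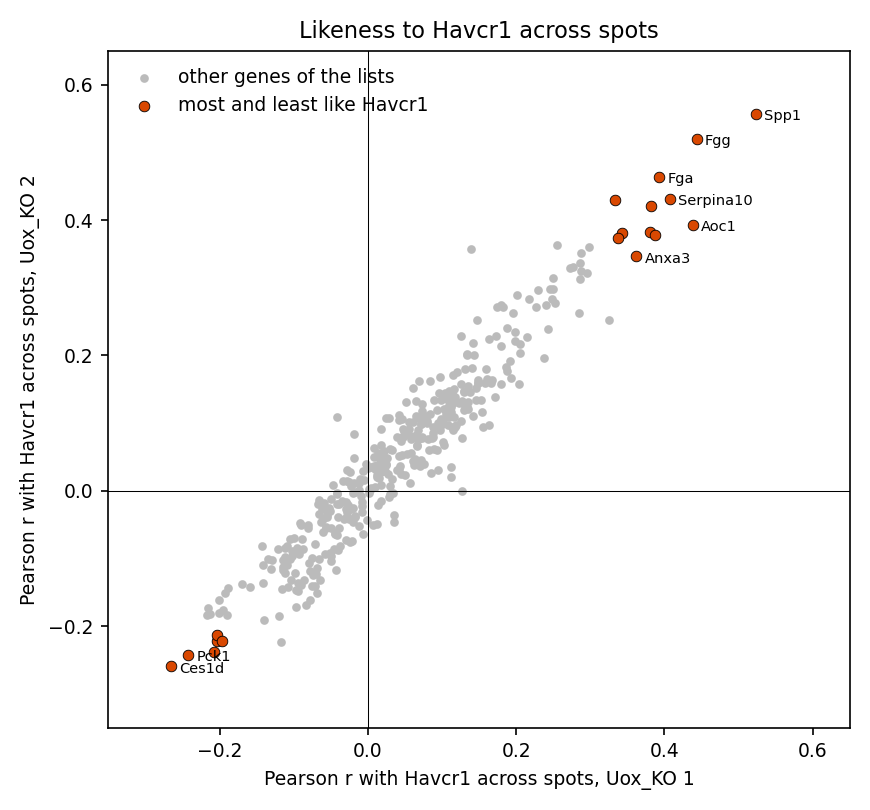
Pearson's r of each gene with Havcr1 across spots, in the first Uox_KO section (horizontal axis) and the second (vertical axis), with 1 point per gene for the listed genes and the 18 most and least like Havcr1. Spp1 lies apart at the upper right with 0.523 and 0.557, and Ces1d lies lowest with -0.266 and -0.259.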

How the data were processed

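Spatial RNA counts were analysed from 1 kidney section of each of 4 mice. Per the submitters' processing notes, the authors ran Space Ranger 1.3.1 against mm10, and the deposited matrices hold UMI counts per gene and spot, not normalized. The aligner settings and annotation release are not given in the sources used here. Each section's counts were summed whole, per spot class or per Havcr1 class, and tested with edgeR 4.0.16 (quasi-likelihood, filterByExpr, TMM scaling, Benjamini-Hochberg threshold 0.05) in R 4.3.3. DESeq2 1.42.0 and other scalings, filters, depths and thresholds were alternatives. Separate mice per section are stated in the titles.

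Spot classes used 18 marker lists and pathway groups brought the gene lists to 41, of which 2 listed genes had no unique match. No doublet caller and no deconvolution were run. Genes named are Havcr1 and its family, up to 4 genes per list by smallest p, sharing their sign between sections, the 10 largest rises and falls, and the 12 highest and 6 lowest correlations. Some genes these rules select are not reported here, though list counts and medians include them. The members and lists were chosen with earlier results of these data known. Thinned shares are exact expectations. Total UMIs ranged from 53897511 to 107962997 per section, and intervals and floors cover counting error only. On simulated data, edgeR recovered 83.5% of 2-fold and 100% of 4-fold changes for whole sections (16028 genes, 200 changed), and 78.6% and 99% for high against free spots (14508 genes). Of the calls there, 5.67% and 2.21% were false. The simulation fixed the dispersion at 0.02, changed only genes above a count limit and drew every library independently. Far more genes were called in the real sections, so these rates are not the power of the tests above.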

Additional observations from a re-analysis of the deposited data

How the results depend on the processing

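The log2 difference of Havcr1 between whole sections ranged from 8.04 to 8.25 over all alternatives run, including each section left out, and the 33 other genes named there kept direction and call, except Edil3, which lost its call by DESeq2 and without either Control section (-0.81 to -0.73). Sections of the 2 genotypes share replicate numbers, but their deviations gave r of 0.0899, so the numbers were not taken as pairs. With the replicate block Havcr1 differed by 8.15, and 5739 genes were called higher and 5377 lower. The difference in the share of positive spots, 17.7 percentage points at 5000 UMIs, was 27.6 at 10000 UMIs, 34 without thinning, 18.4 without fat and urothelium spots and 12.5 for spots with at least 3 UMIs. High against free spots gave 6169 calls by edgeR, 3433 by DESeq2 (1505 higher, 1928 lower) and 2191 in proximal spots (1017 higher, 1174 lower). Of the calls in proximal spots, 914 higher and 1102 lower were also called over all spots, which is only 31.8% and 33.5% of the calls over all spots. Among the named genes, 38 lost their call in proximal spots, 27 by DESeq2 and 10 with matched depth. In the same settings 106, 138 and 143 named genes stayed the same. Lost calls are not all marked where the genes are named above.

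Directions turned as follows. With matched depth C1ra was 0.15, C1s1 0.19, Cd3e 0.41, Col6a1 0.15, Il6ra 0.33, Mfap5 0.42, Serping1 0.28 and Slc7a9 -0.019. In proximal spots Cldn4 was -0.0097, Hspa1b -0.025, Ier3 0.064, Ifi27 0.28, Itgav -0.070, Itgb5 -0.0022, Mt1 0.018, Phlda3 0.36 and Stab1 -0.014. Without fat and urothelium spots Akr1b3 was 0.14, Ifi27 0.23 and Phlda3 0.39. The urothelium class was -0.98 without Sprr1a and -0.94 without the second Uox_KO section, against 2.88 without the first. Class differences that had not passed also turned, at 1.5 SD T and NK cell to -0.34, endothelium to -0.22 and red blood cell to -0.073, and without the second Uox_KO section collecting duct principal to 0.33 and red blood cell to -0.055. The cause of these changes was not tested. Matched depth, the lists without Sprr1a or Spp1 and the removal of the top 1% of spots were chosen after seeing the data.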
